A study of Mus musculus with 6 samples.

Results

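Genes of 10 secreted immune signals were followed in the mouse glioma line GL261, a transplantable tumour line grown from a chemically induced glioma of a C57BL/6 mouse. They are the chemokine genes Ccl2, Ccl5, Ccl7, Cxcl1, Cxcl10 and Cxcl12 and the cytokine genes Csf1, Il6, Il33 and Mif. They were chosen by name from 58327 genes in the files, and all 10 were found. The cells had received sodium propionate (3 libraries, numbered 1, 4 and 5) or sodium chloride (3 libraries, numbered 1, 2 and 3), each at 1 uM per the labels, and were harvested at 4 h. Propionate is a short-chain fatty acid that gut bacteria release when they ferment fibre, and sodium chloride carries the same cation. Both groups are the same unmodified line, the labels name no untreated or earlier sample, and they do not say whether the 3 libraries of a group came from separate cultures. The p-values below therefore measure only the spread between these libraries, which may be technical.

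Chemokines are small secreted proteins that bind G protein-coupled receptors on leukocytes and direct their migration, while cytokines such as interleukin-6 and colony-stimulating factor 1 change the growth and state of the cells that bind them. In gliomas they are known as signals by which tumour cells draw in and condition microglia, macrophages and T cells. Many of these genes are switched on by the NF-kB and interferon pathways and carry short-lived mRNAs.

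Of the 10 genes, 4 reached an average of 1 TPM or more and 6 lay below it; TPM is a relative transcript abundance, corrected for transcript length and library total. Mif was by far the most abundant, followed by Cxcl10, Il33 and Csf1. None of the 4 changed past the threshold after propionate. Ccl5, Ccl2, Il6, Ccl7, Cxcl12 and Cxcl1 stayed near or at 0 in both groups.

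The libraries held 9.33 to 11.3 Gb of bases counted in propionate cells and 9.15 to 9.47 Gb in chloride cells. Propionate 4 and 5, at 11.3 and 11.1 Gb, were deeper than all the others. Propionate 1 and chloride 3 stood apart from the others, with 71192 and 71452 transcript models covered, against 81178 to 82370 in the other 4 libraries. Il6, Ccl2 and the transcript Csf1-202 were listed at 0 in exactly these libraries, and the part of this difference in those values was not tested. Of 12 glioma and neural lineage markers, 9 averaged 1 TPM or more and 3 lay below it. The list summed to 3736 to 4081 TPM in propionate cells and 3417 to 3874 TPM in chloride cells, mostly from Vim. Vim, an intermediate filament gene, averaged 3246 TPM in propionate cells and 2998 TPM in chloride cells. The progenitor marker Nes, the next most abundant, averaged 348.0 TPM in propionate cells and 338.8 TPM in chloride cells. Of 17 microglia and macrophage markers, 8 (among them Itgam, Tyrobp, Trem2 and Adgre1) were listed at 0 in all libraries, and the list summed to 10.9 to 13.4 TPM in propionate cells and 10.8 to 12.5 TPM in chloride cells, mostly from Cd68, Lyz2, Cd14 and Csf1r. The summed level of 10 lymphoid markers was at most 0.339 TPM in propionate cells and 0.215 TPM in chloride cells, and that of 8 endothelial markers at most 0.360 TPM in propionate cells and 0.151 TPM in chloride cells. The 9 fibroblast and pericyte markers summed to 271.0 to 331.5 TPM in propionate cells and 278.8 to 308.6 TPM in chloride cells, led by Cspg4, which glial progenitors also express, and by Acta2. In bulk RNA, fewer cells of a type and less RNA per cell cannot be told apart.

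**Figure D1:**
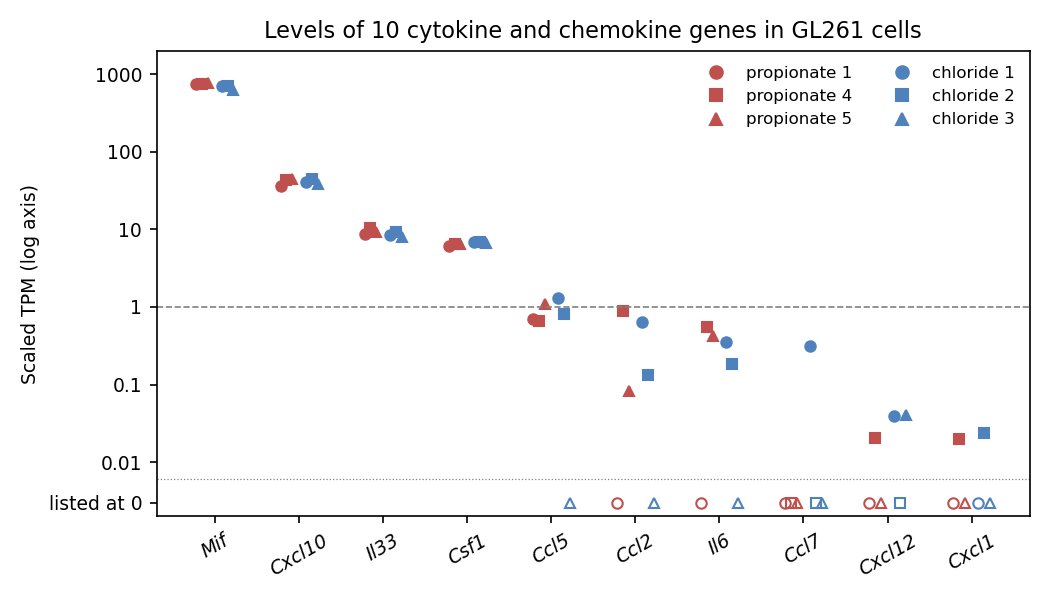
Levels of the 10 genes (scaled TPM, log axis) in each of the 3 propionate and 3 chloride libraries, ordered by mean level; open symbols in the lowest row mark libraries in which a gene was listed at 0, and the dashed line is 1 TPM. Mif, Cxcl10, Il33 and Csf1 lie above 1 TPM in all 6 libraries, and the other genes reach at most 1.31 TPM.

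The order of the 4 expressed genes was the same in all 6 libraries. Mif averaged 713 TPM over the 6 libraries, 17.3 times the 41.2 TPM of Cxcl10. Cxcl10 in turn was 4.57 times Il33, which averaged 9.02 TPM, and Il33 was 1.38 times Csf1, at 6.56 TPM. The ranges of these neighbours over the 6 libraries did not overlap. Csf1 stood 8.64 times above Ccl5, again with no overlap. From Ccl5 downwards every gene was listed at 0 in at least 1 library, and each neighbour's range overlapped the next, so the order of the 6 lowest genes is not resolved. Among 11047 protein-coding genes tested, Mif ranked 134, Cxcl10 3002, Il33 7742 and Csf1 8556. Mif alone made up 92.3% to 93.5% of the summed level of the 10 genes in propionate cells and 91.9% to 92.3% in chloride cells.

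The effect of propionate on these 4 genes was tested with limma on log2(scaled TPM + 1), with Benjamini-Hochberg adjustment over 15513 genes. Across all genes tested, 1 passed an adjusted p of 0.05, which is 0.00645% of them, and 0 of the 4 expressed genes passed. At an unadjusted p under 0.05, limma counted 0 of the 4, against 5.14% of all genes tested. The voom fit on estimated read numbers called 0 of the 4 after adjustment, with Mif at an unadjusted p of 0.037. Mif was also under 0.05 before adjustment in limma fits with library weights (adjusted p = 0.298, unadjusted p = 0.0224) and with a term for chloride 3 and propionate 1 (adjusted p = 0.576, unadjusted p = 0.0322). Groups did not overlap for Mif and Csf1, 2 of the 4, against 11.7% of all genes tested. With TPM as deposited the groups overlapped for Mif and did not for Csf1. On the scaled values Mif was the 1 of the 4 whose libraries all lay higher after propionate, against 5.26% of all genes tested, and Csf1 the 1 whose libraries all lay lower, against 6.48%. The median log2 difference of the 4 was 0.063 and that of all genes tested 0.0055.

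**Figure D2:**
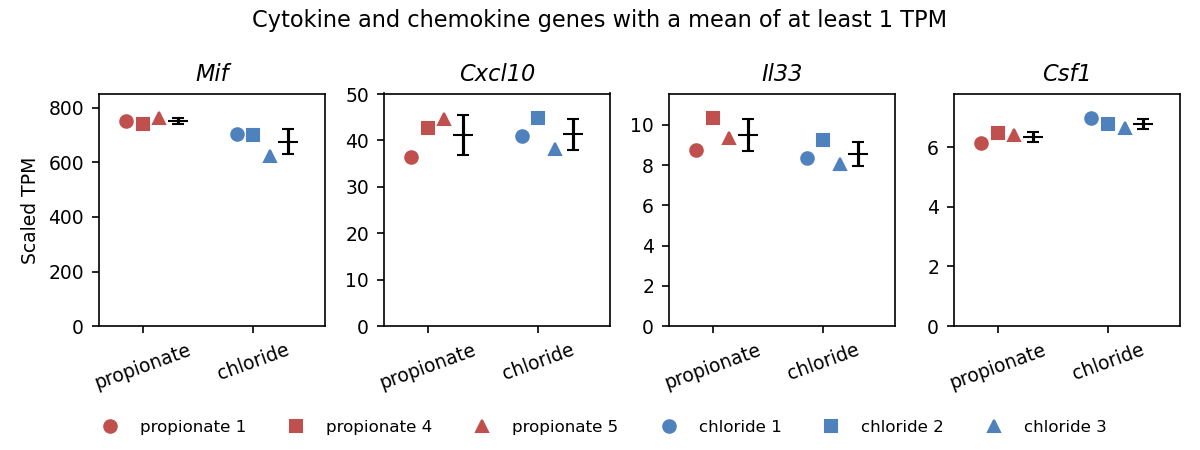
Scaled TPM of Mif, Cxcl10, Il33 and Csf1 in each library (coloured symbols), with the mean and SD of each group beside them as black bars (n = 3 per group); each panel has its own axis from 0. On this scale the groups do not overlap for Mif, higher in propionate cells, and for Csf1, lower in propionate cells, and they overlap for Cxcl10 and Il33; without scaling they overlap for Mif as well.

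Mif (ENSMUSG00000033307, minus strand, chr10:75859353-75860240 in mm10) encodes macrophage migration inhibitory factor, a cytokine that is stored ready-made in many cell types and is named for halting the migration of macrophages. Its level was 751, 740 and 761 TPM in propionate cells 1, 4 and 5, against 704, 699 and 623 TPM in chloride cells 1, 2 and 3. All 3 propionate libraries lay above all 3 chloride libraries, and chloride 3 was the lowest of the 6. As deposited, before scaling, the levels were 729, 715 and 735 TPM in propionate cells, against 767, 692 and 642 TPM in chloride cells, so the groups overlapped and chloride 1 was highest. After scaling, Mif averaged 751 ± 10.1 TPM in propionate cells and 676 ± 45.3 TPM in chloride cells (SD, n = 3 each), a log2 difference of 0.15 (standard error 0.069, 95% interval -0.0096 to 0.32). It did not pass the test (limma, adjusted p = 0.913, unadjusted p = 0.0614). The difference was 0.096 without chloride 3, 0.096 without both chloride 3 and propionate 1, 0.073 with quantile normalization and 0.056 with TPM as deposited.

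Nearly all Mif signal, 98.5% to 99.8% in propionate cells and 98.5% to 99.5% in chloride cells, was assigned to the spliced model Mif-201. The retained-intron model Mif-202 was listed at 11.6, 1.88 and 2.01 TPM in propionate cells 1, 4 and 5, against 3.96, 3.87 and 9.17 TPM in chloride cells 1, 2 and 3. It was highest in propionate 1 and chloride 3, the libraries with fewer covered models. Of the 514 stretches of 31 bases in Mif-201, 449 (87.4%) also occur in transcripts of 8 other annotated genes, mostly pseudogene copies, so reads could be split between them. Of these 8 genes, 2 were at 0 in all libraries. The 8 summed to 9.85, 3.90 and 4.26 TPM in propionate cells 1, 4 and 5, against 4.54, 4.29 and 6.76 TPM in chloride cells 1, 2 and 3. Most of each sum was 1 gene, C230062I16Rik, at 9.27, 3.17 and 3.94 TPM in propionate cells, against 4.10, 3.95 and 6.44 TPM in chloride cells. Mif together with the 8 genes averaged 757 ± 10.9 TPM in propionate cells and 681 ± 44.0 TPM in chloride cells (SD, n = 3 each). Ddt, which encodes D-dopachrome tautomerase, the homologue of Mif, was listed at 30.2, 30.5 and 32.5 TPM in propionate cells 1, 4 and 5, against 29.9, 28.3 and 23.5 TPM in chloride cells 1, 2 and 3. As for Mif, the 3 propionate libraries lay above the 3 chloride libraries after scaling, as in 5.26% of all genes tested. As deposited, however, chloride 1, at 32.6 TPM, was the highest, above 29.3, 29.4 and 31.4 TPM in propionate cells 1, 4 and 5.

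Cxcl10 (ENSMUSG00000034855, minus strand, chr5:92346638-92348889) encodes an interferon-induced chemokine that attracts activated T cells and natural killer cells. It was measured at 36.4, 42.6 and 44.6 TPM in propionate cells 1, 4 and 5, against 41.1, 44.8 and 38.1 TPM in chloride cells 1, 2 and 3. The groups overlapped fully, with propionate 1 lowest and chloride 2 highest. Cxcl10 averaged 41.2 ± 4.24 TPM in propionate cells and 41.3 ± 3.35 TPM in chloride cells (SD, n = 3 each). Its log2 difference was -0.0056 (standard error 0.096, 95% interval -0.23 to 0.22; limma, adjusted p = 0.997), an interval that spans a fold change of 0.852 to 1.17. The sign turned to positive under 5 alternative settings, among them without propionate 1 (0.079) and without chloride 2 (0.053). The spliced model Cxcl10-201 held 94.9% to 97.8% of the signal in propionate cells and 94.6% to 98.8% in chloride cells. On the other strand, a model of the gene Art3 overlaps 133 of the 2252 exonic bases of Cxcl10, and it was listed at no more than 0.435 TPM in propionate cells and 0.727 TPM in chloride cells. The library kit marks strand, but the sources used here do not say how strand was used in counting.

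Il33 (ENSMUSG00000024810, plus strand, chr19:29925114-29960718) encodes interleukin-33, a nuclear cytokine released from damaged cells as an alarm signal, and astrocyte-lineage cells are a known source in brain. It stood at 8.76, 10.3 and 9.37 TPM in propionate cells 1, 4 and 5, against 8.38, 9.25 and 8.06 TPM in chloride cells 1, 2 and 3. Propionate 4 and 5 lay above every chloride library, and propionate 1 lay below chloride 2. Il33 averaged 9.49 ± 0.787 TPM in propionate cells and 8.56 ± 0.613 TPM in chloride cells (SD, n = 3 each), a log2 difference of 0.13 (standard error 0.091, 95% interval -0.082 to 0.35; limma, adjusted p = 0.913). The difference was 0.076 without propionate 4 and 0.045 with TPM as deposited.

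The signal of Il33 came from its downstream start. The model Il33-201, which starts at position 29945790 of chromosome 19, held 94.8% to 99.96% of the gene's level in propionate cells and 99.94% to 99.97% in chloride cells. Of the 3 models that start upstream, near position 29925114, Il33-202 and Il33-204 were listed at 0 in all 6 libraries, and Il33-205 was listed at 0.398 TPM in propionate 4 and at 0 in the other 5.

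Csf1 (ENSMUSG00000014599, minus strand, chr3:107741048-107760469) encodes colony-stimulating factor 1, the survival and growth factor of macrophages and microglia. Its level was 6.13, 6.46 and 6.41 TPM in propionate cells 1, 4 and 5, against 6.96, 6.78 and 6.63 TPM in chloride cells 1, 2 and 3. All 3 propionate libraries lay below all 3 chloride libraries, by a narrow gap between propionate 4 and chloride 3. Csf1 averaged 6.33 ± 0.178 TPM in propionate cells and 6.79 ± 0.166 TPM in chloride cells (SD, n = 3 each), a log2 difference of -0.087 (standard error 0.077, 95% interval -0.27 to 0.095). It did not pass the test (limma, adjusted p = 0.932, unadjusted p = 0.295). The difference was -0.17 with TPM as deposited and -0.048 with voom.

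Csf1 is made in a long form, processed to the soluble growth factor, and in a short form that stays on the cell surface, which lacks a long stretch of a coding exon. In GENCODE M21 the long models Csf1-201 and Csf1-203 have 1659 coding bases and the short model Csf1-202 has 774. Csf1-201 was listed at 5.55, 3.99 and 4.12 TPM in propionate cells 1, 4 and 5, against 4.15, 4.36 and 5.47 TPM in chloride cells 1, 2 and 3 (limma over transcript models, log2 difference -0.031, adjusted p = 0.985). Csf1-202 was listed at 0, 1.95 and 1.90 TPM in propionate cells 1, 4 and 5, against 2.24, 1.51 and 0 TPM in chloride cells 1, 2 and 3 (limma, log2 difference 0.023, adjusted p = 0.998). Where Csf1-202 was at 0, Csf1-201 was at its highest, so the split assigned to the forms differed within each group. The sum per gene stayed between 6.13 and 6.96 TPM. Read coverage summed over the models was compared as well. The 885 bases found only in the long form (chr3:107748285-107749169) were covered at 34.6%, 40.5% and 58.6% of the depth of exons 7 and 8, which follow it, in propionate cells 1, 4 and 5, against 54.5%, 67.3% and 52.0% in chloride cells 1, 2 and 3. These shares overlapped between the groups. Propionate 1 and chloride 3, where Csf1-202 was listed at 0, had the lowest share within their groups. Coverage therefore did not show a loss of the short form there. Coverage assigned to Csf1-201 alone was uneven along its exons too, and reads of common exons can also be assigned to other models. In chloride 3 its exons 1 to 5 had a depth of 0.707 to 1.32 per Gb of bases counted. That lay below the 2.35 per Gb of exon 6, which holds the long-form stretch. In propionate 1 exons 1 and 2 had 0.665 and 1.33 per Gb, also below the 2.03 per Gb of exon 6. Its exons 3 to 5 had 2.08 to 2.58 per Gb, above exon 6. Over all transcript models tested, 13 of 35755 passed (0.0364%), and 0 models of the 10 genes did. At an unadjusted p under 0.05, limma counted 0 of the 6 tested models of these genes, against 4.58% of all models.

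**Figure D3:**
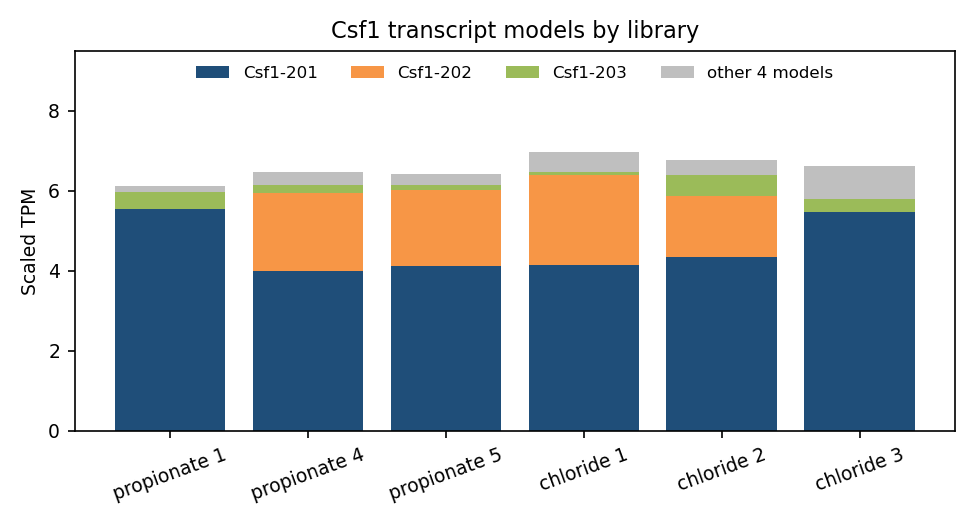
Stacked levels (scaled TPM) of the Csf1 transcript models in each library, propionate cells on the left and chloride cells on the right; the grey part sums the other 4 models. The total stays between 6.13 and 6.96 TPM, while the short-form model Csf1-202 is listed at 0 in propionate 1 and chloride 3.

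The promoters of the 4 expressed genes are shown because these were the genes abundant enough to be tested, and their levels differ widely. Each window is the 250 bases upstream of a RefSeq start site in GRCm38.p6 (the build also named mm10), 5′ to 3′ on the gene's strand, with matches in capitals. The motifs searched on both strands were the NF-kB type site (GGGA and CC with any 4 bases between them), the interferon response site (GAAA and GAAA with any 2 bases between them), the TATA box TATAAA, the GC box GGGCGG, the AP-1 site TGANTCA, the cyclic AMP response TGACGTCA and the C/EBP type site TTGCNNAA. The windows are chr10:75860278-75860527 (minus strand) for Mif, chr5:92348890-92349139 (minus strand) for Cxcl10, chr19:29945540-29945789 (plus strand) for the downstream start of Il33 and chr3:107760470-107760719 (minus strand) for Csf1.
Mif: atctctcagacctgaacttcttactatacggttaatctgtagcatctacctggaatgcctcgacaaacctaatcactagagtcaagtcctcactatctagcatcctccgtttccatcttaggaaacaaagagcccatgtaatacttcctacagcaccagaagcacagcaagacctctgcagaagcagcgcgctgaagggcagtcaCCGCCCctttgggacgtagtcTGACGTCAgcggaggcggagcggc
Cxcl10: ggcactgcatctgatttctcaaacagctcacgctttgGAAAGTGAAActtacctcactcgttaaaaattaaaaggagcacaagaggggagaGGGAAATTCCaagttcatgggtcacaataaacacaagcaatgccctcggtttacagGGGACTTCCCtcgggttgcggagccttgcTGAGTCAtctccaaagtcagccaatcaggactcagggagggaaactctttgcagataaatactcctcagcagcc
Il33: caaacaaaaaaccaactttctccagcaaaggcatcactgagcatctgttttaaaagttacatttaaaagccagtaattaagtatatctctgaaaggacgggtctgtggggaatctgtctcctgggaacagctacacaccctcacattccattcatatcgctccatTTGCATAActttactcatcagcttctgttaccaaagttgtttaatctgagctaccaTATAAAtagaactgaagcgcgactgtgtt
Csf1: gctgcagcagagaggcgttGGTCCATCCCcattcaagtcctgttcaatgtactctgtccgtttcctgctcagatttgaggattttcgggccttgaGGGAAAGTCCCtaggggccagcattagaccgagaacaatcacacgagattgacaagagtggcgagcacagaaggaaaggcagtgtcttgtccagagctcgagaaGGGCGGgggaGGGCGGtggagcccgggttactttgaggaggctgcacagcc

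Positions are counted back from the start site. The Cxcl10 window held an interferon response match at 213 to 204, NF-kB type matches at 159 to 150 and at 103 to 94, and an AP-1 match at 74 to 68. An interferon response match occurs in 2.98% of all 32851 promoter windows of the same length, an NF-kB type match in 17.6% and an AP-1 match in 6.75%. The Mif window held neither of the first pair, but a GC box at 45 to 40 (32.7% of all windows) and a cyclic AMP response match at 24 to 17 (1.55% of all windows). The downstream Il33 window held a TATA box at 29 to 24 (12.4% of all windows) and a C/EBP type match at 85 to 78 (9.56% of all windows). The Csf1 window held an NF-kB type match at 231 to 222, overlapping matches at 155 to 146 and 154 to 145, and GC boxes at 51 to 46 and 41 to 36. A match describes the letters in the window and shows no binding.

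The 6 remaining genes averaged under 1 TPM and were not tested in the main fit. An entry of 0 may stand for a low level or for a failed estimate, so their values are given library by library, with read numbers estimated from coverage. The largest read number behind any of them in a library was 38.9, for Ccl2 in propionate 4.

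Ccl5, Ccl2 and Ccl7 encode chemokines of the CC family, all on chromosome 11. Ccl5 (ENSMUSG00000035042, minus strand, chr11:83525778-83530518), which attracts T cells and monocytes, was listed at 0.695, 0.657 and 1.08 TPM in propionate cells 1, 4 and 5, against 1.31, 0.820 and 0 TPM in chloride cells 1, 2 and 3. These levels stand on 16.1, 18.6 and 29.6 estimated reads in propionate cells, against 33.5, 19.6 and 0 in chloride cells. The groups overlapped, and chloride 3 alone was at 0. The last of the 3 Ccl5 exons was covered in all 5 libraries with a signal, and the first exon in propionate 5 and chloride 1 only. Ccl2 (ENSMUSG00000035385, plus strand, chr11:82035571-82037453), the main attractant of monocytes, was listed at 0, 0.896 and 0.0816 TPM in propionate cells 1, 4 and 5, against 0.647, 0.132 and 0 TPM in chloride cells 1, 2 and 3. Its 2 highest libraries differed in form, since propionate 4 was read from the spliced model Ccl2-201 and chloride 1 from the retained-intron model Ccl2-202. Ccl7 (ENSMUSG00000035373, plus strand, chr11:82045712-82047525), a monocyte attractant whose gene lies next to Ccl2, was listed at 0 in all 3 propionate libraries, against 0.310, 0 and 0 TPM in chloride cells 1, 2 and 3. Chloride 1 thus held the only Ccl7 signal, of 11.4 estimated reads.

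Il6 (ENSMUSG00000025746, plus strand, chr5:30013114-30019981) encodes interleukin-6, which signals through STAT3 and is a known growth signal in gliomas. It was listed at 0, 0.545 and 0.427 TPM in propionate cells 1, 4 and 5, against 0.349, 0.181 and 0 TPM in chloride cells 1, 2 and 3. The 4 libraries with a signal held 32.4 and 25.1 estimated reads in propionate cells 4 and 5, against 26.8 and 9.55 in chloride cells 1 and 2. All 5 exons of Il6-201 were covered in 3 of these libraries, and all but the first in propionate 5. The 2 libraries at 0 were again propionate 1 and chloride 3.

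The last 2 are CXC chemokines. Cxcl12 (ENSMUSG00000061353, plus strand, chr6:117168535-117181367), which holds progenitor cells and leukocytes in their niches, was listed at 0, 0.0202 and 0 TPM in propionate cells 1, 4 and 5, against 0.0388, 0 and 0.0401 TPM in chloride cells 1, 2 and 3. Its coverage in the main model Cxcl12-201 fell wholly in the last exon, with the first 3 exons at 0 in every library. Cxcl1 (ENSMUSG00000029380, plus strand, chr5:90891241-90893115), a neutrophil attractant, was listed at 0, 0.0200 and 0 TPM in propionate cells 1, 4 and 5, against 0, 0.0239 and 0 TPM in chloride cells 1, 2 and 3. Each value above 0 stands on 2 estimated reads in the retained-intron model Cxcl1-202, and the coding model Cxcl1-201 was listed at 0 in all 6 libraries.

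The promoters of Il6 and Cxcl1 are shown because these genes were near or at 0 while their windows held NF-kB type letters of the same kind as those of Cxcl10 and Csf1. The windows, from the same RefSeq table, are chr5:30012864-30013113 (plus strand) for Il6 and chr5:90890995-90891244 (plus strand) for Cxcl1.
Il6: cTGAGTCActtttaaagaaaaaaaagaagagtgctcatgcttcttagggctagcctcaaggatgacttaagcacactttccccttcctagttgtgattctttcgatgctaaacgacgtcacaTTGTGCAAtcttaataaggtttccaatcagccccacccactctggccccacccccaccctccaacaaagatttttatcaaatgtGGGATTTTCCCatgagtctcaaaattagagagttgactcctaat
Cxcl1: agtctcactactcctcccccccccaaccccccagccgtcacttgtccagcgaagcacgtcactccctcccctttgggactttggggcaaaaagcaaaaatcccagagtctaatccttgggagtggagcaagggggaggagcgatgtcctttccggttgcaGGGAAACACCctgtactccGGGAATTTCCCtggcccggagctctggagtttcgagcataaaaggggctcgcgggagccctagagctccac
In the Il6 window the NF-kB type matches were at 44 to 35 and 43 to 34, which overlap, with a C/EBP type match at 128 to 121 and an AP-1 match at 249 to 243. In the Cxcl1 window they were at 90 to 81 and, overlapping each other, at 71 to 62 and 70 to 61. The Cxcl12 window held 5 GC boxes and no match of the other motifs. A window was in the table for 7 of the 10 genes. An NF-kB type match was held by 4 of these 7 genes, against 17.6% of all windows. These were Cxcl10 and Csf1, above 1 TPM, and Il6 and Cxcl1, below it. Whether these letters bear on the levels was not tested.

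Short-lived cytokine mRNAs often carry the pentamer ATTTA in the 3′ untranslated region, where proteins of the Zfp36 family bind. In the reference transcripts of GENCODE M21, the main model of Cxcl1 held 7 such pentamers, Il6 6, Csf1 and Cxcl12 4 each, Il33 3, Cxcl10 and Ccl7 2 each, and Ccl2 1, while Mif and Ccl5 held 0. Of 19201 protein-coding transcripts with a 3′ untranslated region, 58.8% held at least 1 and 28.4% at least 3. The longer nonamer TTATTTATT was found in Cxcl1 alone of the 10, at 2 places, and in 6.25% of all transcripts. The windows of 30 bases with the most pentamers are given for the genes with 3 or more, with each ATTTA in capitals.
Cxcl1: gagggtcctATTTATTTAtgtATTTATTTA
Il6: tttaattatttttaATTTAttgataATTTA
Csf1: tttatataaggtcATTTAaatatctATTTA
Cxcl12: aagcaaatccgaATTTAaataggacATTTA
Il33: atttttctcttttaacacATTTAacATTTA
Mif, the most abundant gene of the 10, held no pentamer, and neither did Ccl5, at a mean of 0.760 TPM. Cxcl12 had 4 in a 3′ region of 5188 bases.

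Receptors for these ligands were read in the same cells. Of the 15 receptor genes examined, 6 reached a mean of 1 TPM and 0 changed past the threshold (limma). An unadjusted p under 0.05 (limma) was found for 0 of the 6, against 5.14% of all genes tested. The 6 had a median log2 difference of 0.053. The chemokine receptor genes Ccr1, Ccr3, Cxcr3 and Cxcr4 and the interleukin-33 receptor gene Il1rl1 were listed at 0 in all 6 libraries, so the signalling receptor of Cxcl10 and the ligand-binding receptor of Il33 were at 0 in cells with both ligands. Among the receptors of Mif, Cd44 averaged 138 ± 8.39 TPM in propionate cells and 130 ± 6.19 TPM in chloride cells, and Cd74, the binding subunit, averaged 0.886 ± 0.0967 TPM in propionate cells and 1.13 ± 0.240 TPM in chloride cells (SD, n = 3 each). Ackr3, an atypical receptor that takes up Cxcl12, averaged 75.9 ± 1.59 TPM in propionate cells and 71.8 ± 2.67 TPM in chloride cells. Its RNA was thus present where that of Cxcl12 was near 0. The signalling subunit of the interleukin-6 receptor, Il6st, averaged 42.0 ± 1.29 TPM in propionate cells and 42.0 ± 1.28 TPM in chloride cells, whereas the ligand-binding subunit Il6ra was listed at 0.667 to 0.969 TPM in propionate cells and 0.671 to 0.826 TPM in chloride cells. Il1rap, the shared accessory chain of the interleukin-1 family, averaged 108 ± 3.59 TPM in propionate cells and 106 ± 3.34 TPM in chloride cells. Csf1r, the receptor of Csf1 and a macrophage marker, averaged 1.68 ± 0.315 TPM in propionate cells and 1.44 ± 0.213 TPM in chloride cells.

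**Figure D4:**
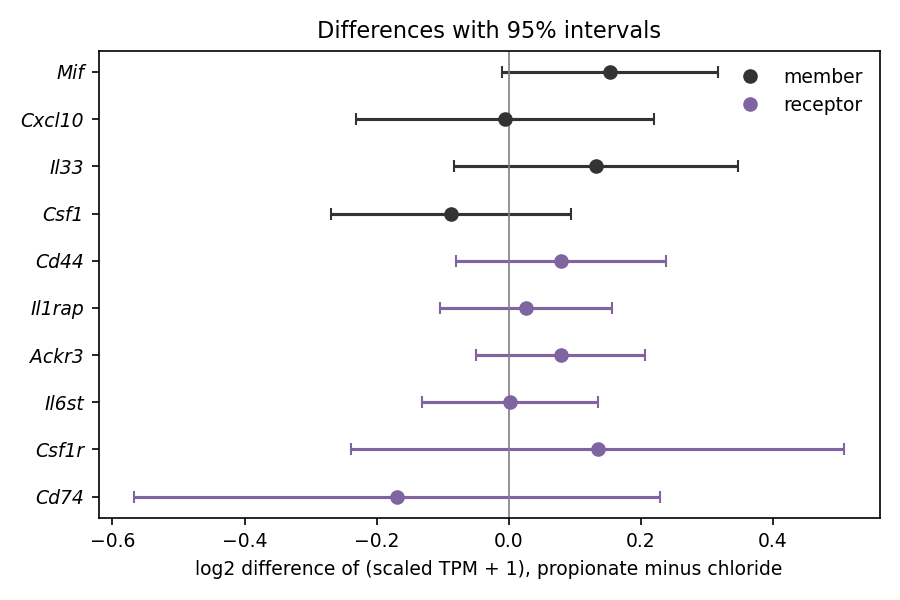
Log2 differences of (scaled TPM + 1), propionate minus chloride, with 95% intervals from limma (n = 3 per group), for the 4 expressed cytokine genes (black) and the 6 receptor genes that were tested (purple). Every interval includes 0, and those of the low genes Csf1r and Cd74 are the widest.

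Other ligands of the same families were mostly silent too. Of 32 other chemokine genes, 19 were listed at 0 in all 6 libraries, among them Ccl3, Ccl4, Ccl20 and Cxcl14, and 2 were tested. Ccl25, a chemokine of thymus and gut, averaged 18.2 ± 1.36 TPM in propionate cells and 20.1 ± 2.77 TPM in chloride cells (SD, n = 3 each), and Ccl27a averaged 2.30 ± 0.547 TPM in propionate cells and 2.56 ± 0.306 TPM in chloride cells. Ccl27a has near-identical copies in the mouse genome, so its value is uncertain. Neither passed the test (limma, lowest adjusted p = 0.925). Of the 2, 0 had an unadjusted p under 0.05 (limma), against 5.14% of all genes tested. Of the other ligands of the Cxcl10 receptor, Cxcl9 reached at most 0.138 TPM in propionate cells and was at 0 in chloride cells, and Cxcl11 reached at most 0.236 TPM in propionate cells and 0.192 TPM in chloride cells.

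Of 45 other cytokine and growth factor genes, 14 were tested, 0 passed (limma) and 2 had an unadjusted p under 0.05, both higher in propionate cells, against 2.16% of all genes tested in that direction. Over all genes tested, 8033 lay above 0 and 7480 below it, with a median log2 difference of 0.0055. The 14 had a median of 0.12, with 11 above and 3 below 0. The most abundant were Kitl, the ligand of Kit, at 124 ± 9.31 TPM in propionate cells and 129 ± 13.0 TPM in chloride cells, and Mydgf, a growth factor of myeloid origin, at 79.2 ± 2.097 TPM in propionate cells and 71.9 ± 5.73 TPM in chloride cells (SD, n = 3 each). The 2 with the smallest p belong to the interleukin-6 family, which signals through Il6st. Clcf1 stood at 13.5, 13.5 and 14.3 TPM in propionate cells 1, 4 and 5, against 11.8, 11.7 and 11.5 TPM in chloride cells 1, 2 and 3 (limma, log2 difference 0.22, adjusted p = 0.913, unadjusted p = 0.0107). Il11 stood at 8.67, 9.73 and 7.42 TPM in propionate cells 1, 4 and 5, against 6.83, 5.81 and 6.84 TPM in chloride cells 1, 2 and 3 (limma, log2 difference 0.35, adjusted p = 0.913, unadjusted p = 0.0185). In both genes, named for their small p, the 3 propionate libraries lay above the 3 chloride libraries after scaling, as in 5.26% of all genes tested. As deposited the groups overlapped for Il11 and not for Clcf1. They are therefore more abundant in these cells than Il6 itself, which averaged 0.250 TPM over the 6 libraries.

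Of the genes tested that act on or upstream of these ligands, 0 passed the test (limma). Of the 9 genes that scavenge, hold or trim ligands 4 were tested, with 1 at an unadjusted p under 0.05 and higher after propionate, against 2.16% of all genes tested. This was Sdc4, a heparan sulphate proteoglycan that binds chemokines, at 91.7 ± 5.15 TPM in propionate cells and 78.3 ± 2.62 TPM in chloride cells (SD, n = 3 each; limma, log2 difference 0.22, adjusted p = 0.913). Mmp2, a protease that cleaves Cxcl12 and Ccl7, averaged 386 ± 20.9 TPM in propionate cells and 382 ± 13.9 TPM in chloride cells, and Dpp4, which trims Cxcl10 and Cxcl12, was listed at 0 in all libraries. Sdc1, a relative of Sdc4, averaged 59.2 ± 0.655 TPM in propionate cells and 54.7 ± 3.24 TPM in chloride cells (SD, n = 3 each). Of 20 signal transducers 19 were tested and 1 had an unadjusted p under 0.05, against 5.14% of all genes tested. This was the feedback inhibitor Socs3, at 14.5 ± 0.724 TPM in propionate cells and 11.97 ± 1.60 TPM in chloride cells (SD, n = 3 each; limma, log2 difference 0.27, adjusted p = 0.913). The most abundant transducers were Gnai3, the inhibitory G protein subunit behind chemokine receptors, at 137 ± 15.4 TPM in propionate cells and 130 ± 4.96 TPM in chloride cells, and the kinase gene Jak1, at 57.8 ± 0.582 TPM in propionate cells and 56.7 ± 2.65 TPM in chloride cells. Irak4, the kinase behind interleukin-1 family receptors, averaged 7.74 ± 0.422 TPM in propionate cells and 7.15 ± 0.528 TPM in chloride cells.

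All 20 transcription factors and cofactors listed for cytokine promoters were tested. Of these, 0 had an unadjusted p under 0.05 (limma), against 5.14% of all genes tested. The 20 had a median log2 difference of 0.0098. The most abundant were Hif1a, of the oxygen response, at 45.7 ± 1.95 TPM in propionate cells and 44.6 ± 1.40 TPM in chloride cells, and Sp1, a factor that binds GC boxes, at 36.6 ± 1.68 TPM in propionate cells and 36.4 ± 1.89 TPM in chloride cells. The inhibitor gene Nfkbia, itself a target of NF-kB, averaged 34.9 ± 0.702 TPM in propionate cells and 32.1 ± 1.36 TPM in chloride cells, and the interferon signalling gene Stat2 averaged 6.25 ± 0.316 TPM in propionate cells and 7.10 ± 0.270 TPM in chloride cells.

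All 18 regulators of cytokine mRNA decay were tested, with 1 at an unadjusted p under 0.05, lower in propionate cells, against 2.98% of all genes tested in that direction. Their median log2 difference was -0.012. That gene was Tia1, a protein that binds AU-rich mRNA and represses its translation, at 25.3, 25.4 and 25.4 TPM in propionate cells 1, 4 and 5, against 29.97, 29.5 and 33.1 TPM in chloride cells 1, 2 and 3. All 3 values after propionate were lower than all 3 after chloride, as in 6.48% of all genes tested. The log2 difference of -0.27 did not pass (limma, adjusted p = 0.913, unadjusted p = 0.00415). Hnrnpd, another protein that binds AU-rich mRNA, averaged 30.1 ± 2.61 TPM in propionate cells and 37.5 ± 7.36 TPM in chloride cells, with overlap between the groups. The deadenylase complex genes Cnot1 and Cnot6 were the most abundant of the list, Cnot1 at 106 ± 6.62 TPM in propionate cells and 111 ± 3.38 TPM in chloride cells, and Cnot6 at 96.3 ± 5.51 TPM in propionate cells and 97.3 ± 4.38 TPM in chloride cells.

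Of 12 receptors that induce cytokines, 11 were found by name, all but Tmem173, and 10 were tested. Of the 10, 0 had an unadjusted p under 0.05 (limma), against 5.14% of all genes tested. The interferon-gamma receptor gene Ifngr1 averaged 49.1 ± 4.52 TPM in propionate cells and 48.8 ± 1.55 TPM in chloride cells, and Ddx58, a sensor of viral RNA, averaged 44.1 ± 3.08 TPM in propionate cells and 42.2 ± 3.72 TPM in chloride cells (SD, n = 3 each). Ifngr2, the partner chain of Ifngr1, averaged 6.99 ± 0.557 TPM in propionate cells and 6.11 ± 0.536 TPM in chloride cells, and Tlr2, a receptor for bacterial lipoproteins, averaged 1.53 ± 0.507 TPM in propionate cells and 1.89 ± 0.169 TPM in chloride cells. The 10 had a median log2 difference of 0.033.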

How the data were processed

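Per the labels' protocols, a stranded total RNA kit was used on GL261 cells. The tools named in the submitters' processing notes are HISAT2, StringTie, fastp and bcl2fastq, with the build mm10. Per the file headers, StringTie 2.1.1 gave coverage, FPKM and TPM for 157296 transcript models in each library separately; the authors deposited no counts. TPM was summed per gene by GENCODE M21 gene identifier, or by name where a model had none, with assembled models joined by exonic overlap. Each library was scaled by its median ratio to the geometric mean of the 6. The 15513 genes that averaged 1 TPM or more, with a longest model of at least 200 nt, were tested. The test was two-sided on log2(scaled TPM + 1) with limma 3.58.1 (lmFit and eBayes, variance trend on; R 4.3.3), adjusted by Benjamini-Hochberg over all genes at 0.05. It was also run on simulated data with independent noise for each gene. The changes set there were larger than those of the cytokine genes tested here. That run therefore cannot show how well such small changes are found. A pseudocount of 1 understates the change of low genes. Read numbers were estimated from coverage, model length and reads of 101 bases. Files were read with Python 3.11.15 and pandas 2.3.3, and plots drawn with matplotlib 3.10.9. The members and lists were chosen with earlier results of these data known. All 10 genes were named, with every receptor at a mean of 1 TPM or more. From each other list the rule took genes past the threshold, else the 2 most abundant and the 2 with the smallest p; Ddt, Cxcl9, Cxcl11, Il6ra, Dpp4 and genes listed at 0 were named after their values were seen. Cell type markers are described by their sums, counts and leading genes; 1 marker is not reported here and was left out of them. Promoters are from RefSeq (GRCm38.p6); 3′ regions and exons are from GENCODE M21. The alternatives tried are given with their effect at the end.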

Additional observations from a re-analysis of the deposited data

How the results depend on the processing

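The counts of the 10 genes, of the other lists and of the members' transcript models past the threshold were 0 as reported and 0 under every alternative that gave a value (21, 21 and 11 alternatives). Mif and Il33 kept a positive difference and Csf1 a negative one under all 21, from 0.056 to 0.18 for Mif, 0.045 to 0.18 for Il33 and -0.17 to -0.048 for Csf1. Their adjusted p was at least 0.298, 0.463 and 0.533. Leaving out 1 library at a time gave 0.096 to 0.18 for Mif, 0.076 to 0.18 for Il33 and -0.10 to -0.067 for Csf1. Cxcl10, at -0.0056, was positive with no filter on low values (0.0092), with library weights (0.071), with chloride 3 and propionate 1 left out together (0.022), without chloride 2 (0.053) and without propionate 1 (0.079), and ranged from -0.063 to 0.079 with 1 library left out. The cause of the turn was not tested. Unscaled TPM moved the median of all genes to -0.083, and relative to that shift Csf1 still lay lower. The number of genes past the threshold was 1 as reported, 0 with no filter and with voom, 2 with library weights and with sums over assembled loci, 6 with chloride 3 and propionate 1 left out together, and 1 to 4 with 1 library left out, the highest without propionate 1. No paired analysis was possible because the groups share fewer than 2 replicate numbers. With 3 libraries a group, the 95% interval of Mif reached from a fold of 0.993 to 1.25. With no filter the 95% intervals of the 6 genes under 1 TPM all included 0. That of Ccl5 reached from -0.64 to 0.96 on the log2 scale, and that of Cxcl1 from -0.048 to 0.044. At values near 0 the pseudocount of 1 narrows such intervals, so they cannot show that these genes did not change.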
